A study of Mus musculus with 16 samples.

Results

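Transcripts of the B cell receptor and of the B cell surface were measured in RNA from sorted neutrophils of wild-type (WT) mice and of αD KO mice, which lack the integrin subunit encoded by Itgad. The 8 genes Ighm, Ighd, Igkc, Iglc2, Cd79a, Cd79b, Ms4a1 and Ly6d were picked by name out of 49315 genes in the files. They were picked because their levels fell after cecal ligation and puncture (CLP), though not in every group, and differed between libraries of the same group. Their change after CLP is therefore given as a description, without a test. The cells were sorted as Ly6G+/CD11b+/CD45.2+ from the blood or the lung of male mice 8 to 12 weeks old. The mice were either naive, without treatment, or were killed at 12 hours post CLP, a surgery that causes polymicrobial abdominal sepsis. The 2 genotypes, 2 tissues and 2 times made 8 groups, each with 3 libraries from 2 samples. In each group the first sample was deposited as a pair of count files (libraries 1a and 1b) and the second as one (library 2). The gate selects neutrophils, and B cells are not known to carry Ly6G. In bulk RNA, fewer cells of a type and less RNA per cell cannot be told apart.

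The B cell receptor is a membrane immunoglobulin made of 2 heavy and 2 light chains, held by the signalling pair CD79A and CD79B. A heavy chain gene is assembled in developing B cells from V, D and J segments, which are then transcribed with the constant region of IgM (Ighm) or, by splicing of the same primary transcript, of IgD (Ighd). A light chain uses the kappa constant region (Igkc) or a lambda one such as Iglc2. Naive B cells carry IgM and IgD, together with CD20 (Ms4a1), and Ly6d marks cells committed to the B lineage. Neutrophils do not assemble immunoglobulin genes.

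The library totals were between 5753476 and 29984954 counts. The 8 libraries 1b had counts on 29162 to 38844 genes, and the other 16 libraries on 17132 to 32666. Levels are given as CPM, the count of a gene scaled to library size after TMM normalization, and 3 counts correspond to 0.107 to 0.342 CPM, depending on the library. These floors, and all intervals of counts given here, cover counting error only, since the reads carry no molecular identifiers. Itgad, the targeted gene, ranged from 0.0522 to 4.08 CPM in the 12 WT libraries and from 12.6 to 96.1 CPM in the 12 that carry the αD KO label, so its RNA was higher where the label says it is lost. The counts are per gene and not per exon, so a transcript of the targeted allele cannot be told from an intact one, and groups are named by their labels. Neutrophil genes were high throughout, with the 8 genes of that list summing to between 33380 and 186500 CPM. The lung libraries were placed between the WT naive (0) and WT 12 hour (1) lung means, on 1309 genes that exclude immunoglobulin genes and all lists. These genes were called by edgeR between the WT lung groups themselves, by the rule given below. The separation of the WT lung libraries was thus built in by the choice of genes. The naive αD KO lung library 2 lay at 1.02, and the 12 hour αD KO lung libraries 1a and 2 lay at 0.09 and 0.18, so these 3 lay near the other time. The other 9 lung libraries lay between -0.05 and 0.15 when naive and between 0.69 and 1.201 at 12 hours. Fits between tissues and genotypes that include them are also given without them.

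Per kilobase of exon, Ighm was the most abundant of the 8 genes, with a median of 239 CPM per kb over the 12 naive libraries. Igkc followed at 28.1 CPM per kb, and Ms4a1 was the lowest at 1.23 CPM per kb. Ighm exceeded Igkc, Igkc exceeded Iglc2, and Cd79b exceeded Ms4a1 within all 12 naive libraries. Between these lay Iglc2 (6.67 CPM per kb), Cd79a (6.04), Ly6d (5.97), Ighd (5.23) and Cd79b (4.22), whose order was not the same in every library. Iglc2 was above Cd79a in 5 of 12 naive libraries, Cd79a above Ly6d in 9, Ly6d above Ighd in 7 and Ighd above Cd79b in 6. At 12 hours post CLP the medians per kilobase were 23.6 for Ighm, 8.98 for Igkc and 4.74 for Cd79a, and the other members were at or below 1.02.

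**Figure D1:**
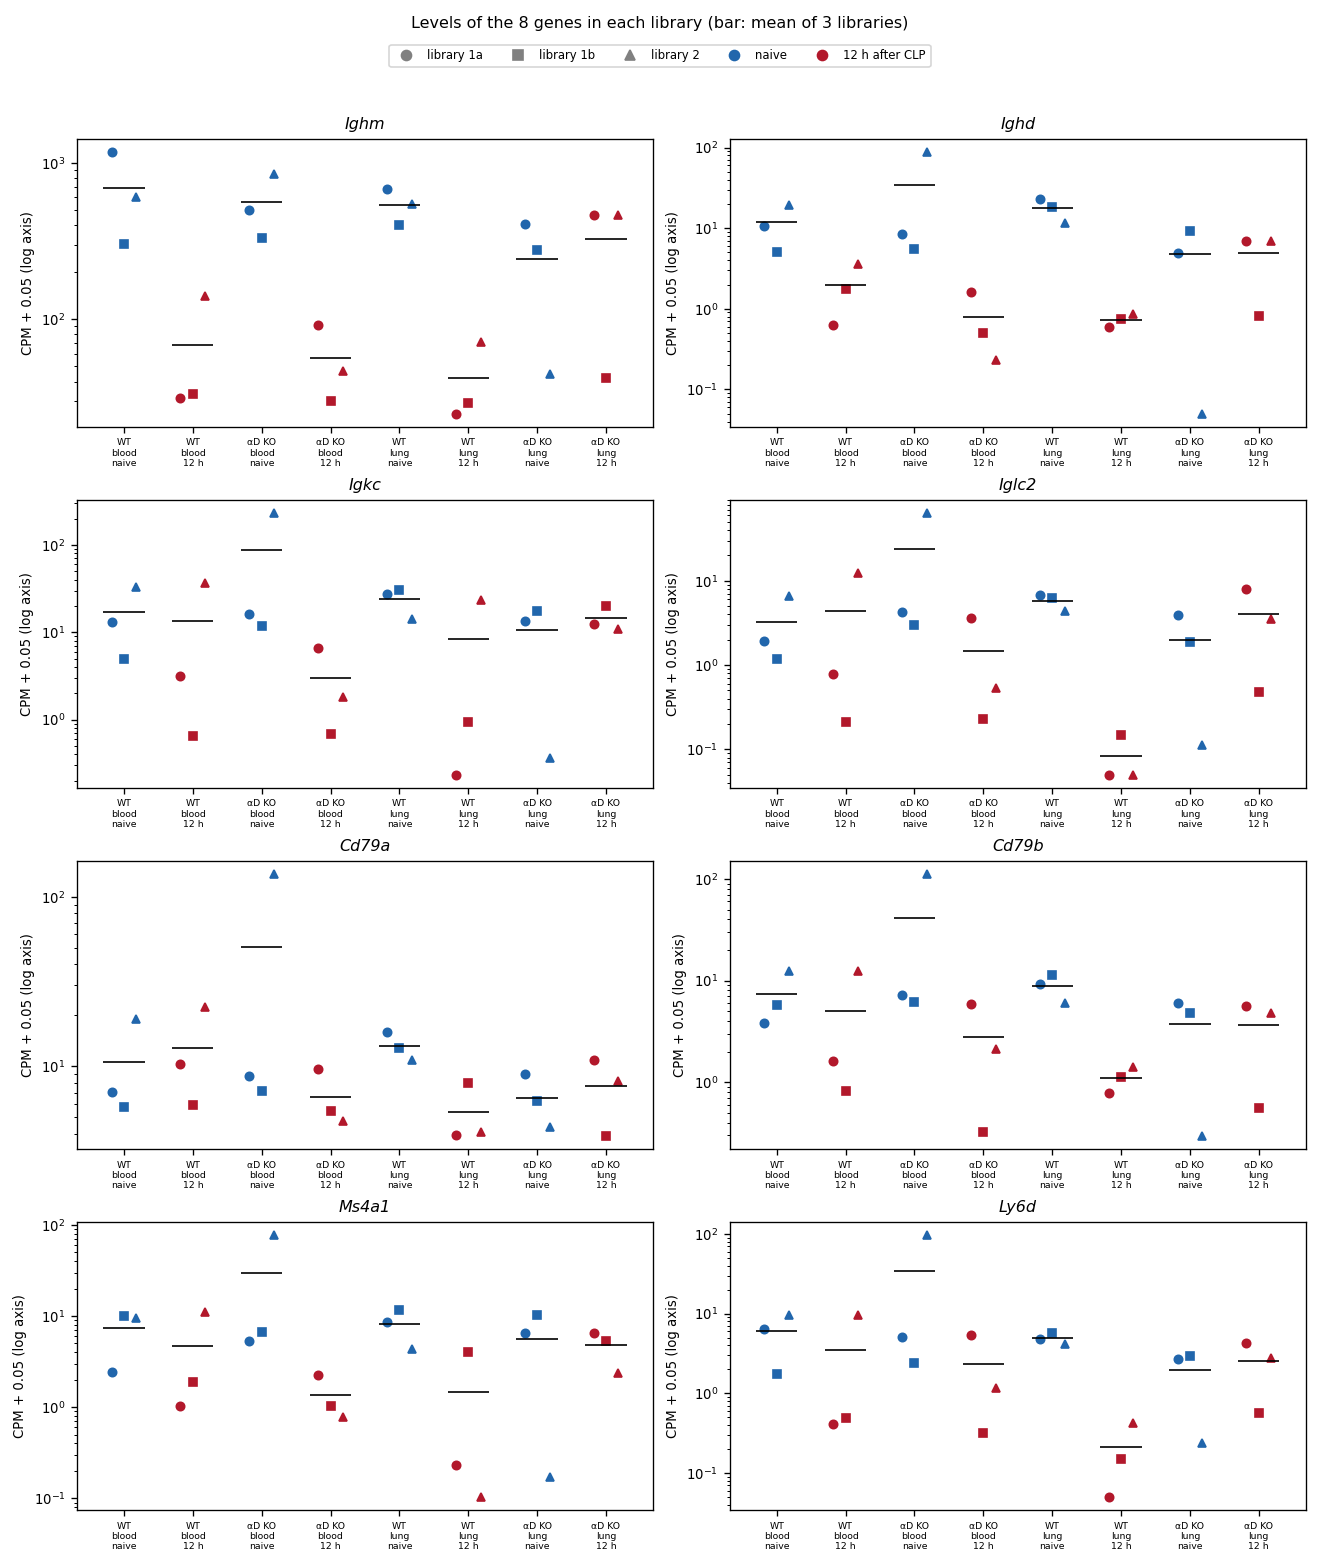
Level of each of the 8 genes (vertical axis, CPM + 0.05 on a log axis) in the 24 libraries by group (horizontal axis), naive in blue and 12 hours post CLP in red, with a marker for each library and a bar at the mean of 3. Ighm lies between 278 and 1170 CPM in 11 of 12 naive libraries, and library 2 of naive αD KO blood stands above its group in the other 7 genes.

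Ighm, the constant region of IgM, lies on chr12:113418558-113422730 (GRCm38, minus strand). In naive WT blood its level was 1170, 304 and 602.5 CPM, in the order 1a, 1b, 2 that all values below follow, and in naive αD KO blood at 497, 328 and 848 CPM. In naive lung it was at 679.5, 399 and 542 CPM in WT and at 404, 278 and 44.9 CPM in αD KO. The last of these, library 2, was the only naive library below 278 CPM. At 12 hours post CLP, the blood libraries had 31.1, 33.3 and 141.5 CPM in WT and 92.3, 29.95 and 46.7 CPM in αD KO. The WT lung libraries had 24.9, 29.0 and 72.0 CPM, while those of αD KO had 467, 42.2 and 461 CPM. The naive and 12 hour libraries did not overlap in WT blood, WT lung and αD KO blood, and they overlapped in αD KO lung.

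The group means of Ighm were 692 ± 440.2 CPM (SD, n = 3) in naive WT blood and 68.6 ± 63.1 CPM at 12 hours, a fold of 10.1, which was 6.60 without naive library 1a and 21.5 without 12 hour library 2. In WT lung they were 540.0 ± 140.4 CPM and 42.0 ± 26.1 CPM, a fold of 12.9, and 20.04 without 12 hour library 2. In αD KO blood they were 558 ± 265 CPM and 56.3 ± 32.3 CPM, a fold of 9.91, and without naive library 2 the fold was 7.33. In αD KO lung the mean was 242 ± 182 CPM when naive and 323 ± 243.5 CPM at 12 hours. Among the αD KO lung libraries that lay near the time of their label, Ighm was at 404 and 278 CPM when naive and at 42.2 CPM at 12 hours.

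Ighd, the constant region of IgD, lies next to Ighm on chr12:113406604-113416324 (minus strand). In naive libraries it was at 10.7, 5.01 and 19.5 CPM in WT blood, at 8.37, 5.48 and 87.8 CPM in αD KO blood and at 22.9, 18.4 and 11.5 CPM in WT lung. In naive αD KO lung it was at 4.87 and 9.17 CPM in libraries 1a and 1b and had no count in library 2. At 12 hours the WT lung libraries were at 0.550, 0.689 and 0.808 CPM, all far below the naive ones, and those of αD KO lung at 6.79, 0.769 and 6.97 CPM. In blood at 12 hours the range was 0.574 to 3.53 CPM in WT and 0.184 to 1.59 CPM in αD KO. The fold of the means was 6.085 in WT blood (10.4 without 12 hour library 2), 25.8 in WT lung and 45.7 in αD KO blood. The last was 9.34 without naive library 2 and 107 without 12 hour library 1a. Per kilobase, Ighm was 9.73 to 110 times Ighd in the 11 naive libraries with an Ighd count.

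The J segments of the heavy chain lie just upstream of Ighm and were counted as genes of their own. Over all 24 libraries their summed level followed Ighm more closely than Igkc or Iglc2, and they were at 0 in most of the 12 hour libraries, so their sequences are shown. They are from the GENCODE M21 transcripts (GRCm38), 5′ to 3′, and capitals mark the bases TGGGGNNNNGGN, the codons for the tryptophan and glycines shared by heavy chain J segments.
Ighj1, chr12:113429781-113429833: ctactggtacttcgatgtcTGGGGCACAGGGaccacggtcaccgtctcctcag
Ighj2, chr12:113429468-113429567: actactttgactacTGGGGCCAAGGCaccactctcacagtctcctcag
Ighj3, chr12:113429085-113429132: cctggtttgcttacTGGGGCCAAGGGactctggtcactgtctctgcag
Ighj4, chr12:113428514-113428567: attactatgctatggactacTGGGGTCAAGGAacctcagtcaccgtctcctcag
All 4 segments had counts in 11 of the 12 naive libraries. The range given for Ighj2 is that of the gene in the files and is longer than the segment.

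Summed over the 4 J segments, naive WT blood had 231, 41 and 126 counts in libraries 1a, 1b and 2, and naive αD KO blood had 97, 43 and 145. Naive lung had 186, 116 and 165 counts in WT, and 69, 52 and 0 in αD KO. Ighj1 had the most counts in each naive library with any, with between 41.5% (95% Wilson interval 27.8 to 56.6) and 72.2% (62.5 to 80.1) of them. At 12 hours, 8 of 12 libraries had no J segment count, among them all 3 of WT lung. The other 4 were WT blood library 2 with 7 counts, αD KO blood library 1a with 2, and αD KO lung libraries 1a and 2 with 93 and 78. The last 2 are the libraries that lay near the naive lung.

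Across the 24 libraries, the log2 level of the summed J segments had a Pearson's r of 0.96 and a Spearman's rho of 0.86 with Ighm, and 0.68 and 0.58 with Igkc. Over the 12 naive libraries alone the values were 0.90 and 0.67 with Ighm, and 0.79 and 0.48 with Igkc. With Iglc2 they were 0.79 and 0.75 over the 24 libraries and 0.73 and 0.50 over the naive ones. Over the 12 libraries at 12 hours they were 0.94 and 0.60 with Ighm, 0.48 and 0.34 with Igkc, and 0.76 and 0.65 with Iglc2. By Spearman's rho the J segments were thus closer to Iglc2 than to Ighm at 12 hours. Library totals and the groups themselves are shared by both axes, so these coefficients describe the libraries only.

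**Figure D2:**
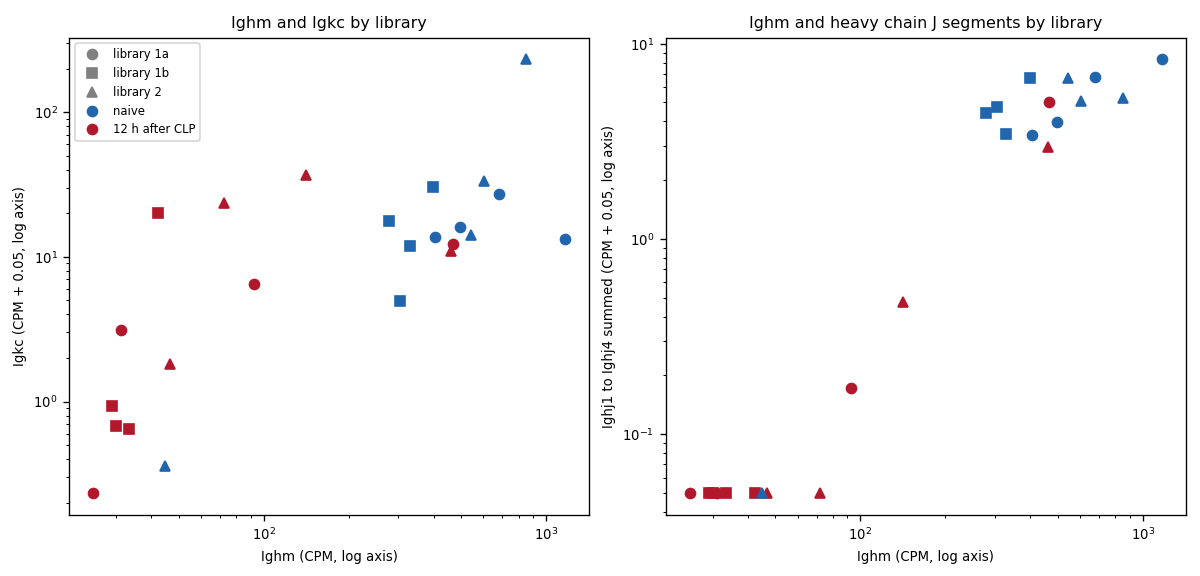
Left, Ighm against Igkc, and right, Ighm against the summed J segments, each point a library (both axes in CPM on log axes, with 0.05 added on the vertical ones), naive in blue and 12 hours post CLP in red. On the right, the libraries with at least 278 CPM of Ighm all have J segment counts, and 9 libraries lie at 0; on the left, Igkc varies widely at similar Ighm.

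The V segments of the heavy chain had between 895 and 3122 counts in the naive libraries other than αD KO lung library 2, which had 73. At 12 hours they had between 65 and 409, apart from αD KO lung libraries 1a and 2 with 1144 and 1122. With the counts of a group's libraries pooled, Ighv1-69 was the largest segment in all 4 naive groups. By library it led in 3 of 3 of naive WT blood, 2 of 3 of naive WT lung, 2 of 3 of naive αD KO lung and 1 of 3 of naive αD KO blood. It had 845 of 4652 Ighv counts in naive WT blood (18.2%), 1103 of 5921 in naive WT lung (18.6%), 531 of 5295 in naive αD KO blood (10.03%) and 256 of 2240 in naive αD KO lung (11.4%). At 12 hours it led only in αD KO lung, with 362 of 2663 counts (13.6%) and the lead in 2 of 3 libraries, those that lay near the naive lung. In the other groups at 12 hours the largest pooled counts were those of Ighv1-41 in WT blood (92 of 831) and αD KO blood (37 of 342), which led 1 of 3 libraries in each, and Ighv1-64 in WT lung (96 of 724), which led 2 of 3. V segments resemble each other closely and only unique reads were counted, so single segments are uncertain. Ighv1-69 is shown as the leading segment, as the last 300 bases of a GENCODE M21 transcript of the gene at chr12:115623161-115623595 (minus strand), and capitals mark the codons for 2 tyrosines and the cysteine that precede the junction.
Ighv1-69: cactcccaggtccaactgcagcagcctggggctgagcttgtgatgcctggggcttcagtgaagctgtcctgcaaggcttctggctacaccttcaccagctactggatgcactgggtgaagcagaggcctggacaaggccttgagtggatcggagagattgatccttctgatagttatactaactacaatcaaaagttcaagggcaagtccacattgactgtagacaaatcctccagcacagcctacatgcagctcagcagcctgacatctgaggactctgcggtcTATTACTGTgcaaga

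Igkc, the kappa constant region on chr6:70726435-70726966, ranged from 0.308 to 232 CPM in the naive libraries, where Ighm ranged from 44.9 to 1170 CPM. The log2 levels of the pair had a Pearson's r of 0.76 and a Spearman's rho of 0.66 over the 24 libraries. In naive blood Igkc was at 13.1, 4.895 and 33.2 CPM in WT and at 16.0, 11.8 and 232 CPM in αD KO. In naive lung it was at 27.1, 30.55 and 14.0 CPM in WT and at 13.6, 17.6 and 0.308 CPM in αD KO. At 12 hours the blood libraries had 3.08, 0.600 and 36.5 CPM in WT, and 6.48, 0.630 and 1.78 CPM in αD KO. WT blood library 2 at 12 hours was thus above all 3 naive WT blood libraries. The lung libraries at 12 hours had 0.183, 0.885 and 23.6 CPM in WT and 12.2, 19.9 and 10.9 CPM in αD KO. In WT lung, library 2 stood far above the other two and inside the naive range.

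Per kilobase, the ratio of Ighm to Igkc was between 1.03 and 41.1 in the naive libraries, with a median of 8.11. It was 25.1, 17.5 and 5.12 in naive WT blood and 8.78, 7.83 and 1.03 in naive αD KO blood. At 12 hours it was between 0.598 and 38.3, with a median of 8.32, and lowest in αD KO lung library 1b and WT lung library 2. These were the only libraries with more Igkc than Ighm per kilobase.

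Iglc2 is a lambda constant region on chr16:19198396-19200351 (minus strand). It is among the genes of a published heat map of WT and αD KO lung after CLP, so its difference there is given without a test. In the lung at 12 hours it was at 0, 0.0984 and 0 CPM in WT and at 7.96, 0.427 and 3.47 CPM in αD KO. The 2 high αD KO values are those of libraries 1a and 2, which lay near the naive lung. The WT lung mean was 5.765 ± 1.29 CPM when naive and 0.0328 ± 0.0568 CPM at 12 hours. With 404 counts pooled over the 3 naive libraries and 1 count over the 3 at 12 hours, the ratio of pooled counts per effective library size, which is not the ratio of these means, was 259.9 (95% counting interval 46.4 to 10290). In naive WT lung it was at 6.78, 6.20 and 4.31 CPM and in naive αD KO lung at 3.90, 1.85 and 0.0616 CPM. In blood it was at 1.90, 1.14 and 6.63 CPM in naive WT and at 4.26, 2.94 and 63.5 CPM in naive αD KO. At 12 hours blood had 0.731, 0.164 and 12.2 CPM in WT, where library 2 exceeded the naive libraries, and 3.545, 0.180 and 0.491 CPM in αD KO.

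Iglc2 has a near copy, Iglc3. The first 90 bases that align between their constant exons are shown, from GENCODE M21, with the differing bases in capitals.
Iglc2: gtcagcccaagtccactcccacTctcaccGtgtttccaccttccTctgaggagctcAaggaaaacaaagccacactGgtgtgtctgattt
Iglc3: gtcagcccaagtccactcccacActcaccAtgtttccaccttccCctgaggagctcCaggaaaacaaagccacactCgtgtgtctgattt
Over 317 coding bases 11 differ (96.5% identity), and the longest run without a difference is 79 bases. According to the methods, untrimmed reads were longer than this run. Since only unique reads were counted, shorter or trimmed reads inside it could be lost from both genes, and how many was not tested. The levels of both genes are uncertain to that extent. Iglc3 was the gene whose pattern was most like that of the members, with a Spearman's rho of 0.946 over the 24 libraries.

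Kappa and lambda can be compared within a library as the share of Igkc in the counts of Igkc and Iglc1 to Iglc3. The share was 59.7% to 80.1% in the 11 naive libraries other than αD KO lung library 2, and 45.8% to 65.9% in the 6 blood libraries at 12 hours. It was 98.9% (95% Wilson interval 97.4 to 99.5) in WT lung library 2 at 12 hours, where Igkc had 438 counts and the lambda genes 5. It was 97.1% (94.1 to 98.6) in αD KO lung library 1b at 12 hours, with 233 Igkc counts and 7 lambda counts. Jchain, which joins the chains of secreted IgM and IgA, had 42 counts (2.26 CPM) in the first and 63 (5.385 CPM) in the second. At 12 hours the other 10 libraries had at most 19 Jchain counts. These are raw counts from libraries of unequal depth, so levels in CPM may lie closer together. The Jchain mean was 1.40 ± 1.17 CPM (SD) in WT lung at 12 hours and 0.911 ± 1.58 CPM in naive WT blood.

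In WT lung library 2 at 12 hours, 231 of 252 Igkv counts fell on Igkv4-91 (91.7%, 95% Wilson interval 87.6 to 94.5). In αD KO lung library 1b at 12 hours, Igkv8-30 had 138 of 727 (19.0%, 16.3 to 22.0). Among all 24 libraries the share of the largest Igkv segment was otherwise at most 35.0%, in a WT blood library at 12 hours with 40 counts. With the counts of a group's libraries pooled, the largest Igkv segment was Igkv6-15 in naive WT blood (127 of 1888) and naive WT lung (67 of 1477), Igkv19-93 in naive αD KO blood (269 of 5156) and Igkv10-96 in naive αD KO lung (98 of 1024). At 12 hours it was Igkv14-126 in WT blood (61 of 582), Igkv1-110 in αD KO blood (9 of 161), Igkv4-91 in WT lung (232 of 925) and Igkv8-30 in αD KO lung (139 of 1260). Igkv6-15 led 2 of 3 libraries of naive WT blood, Igkv19-93 led none of its group, and in the other groups the segment led 1 of 3. The last 300 bases of the Igkv4-91 transcript (GENCODE M21, gene at chr6:68768555-68769103, minus strand) are shown because this segment carried most of the kappa V counts of a library, and capitals mark the codons for 2 tyrosines and the cysteine before the junction.
Igkv4-91: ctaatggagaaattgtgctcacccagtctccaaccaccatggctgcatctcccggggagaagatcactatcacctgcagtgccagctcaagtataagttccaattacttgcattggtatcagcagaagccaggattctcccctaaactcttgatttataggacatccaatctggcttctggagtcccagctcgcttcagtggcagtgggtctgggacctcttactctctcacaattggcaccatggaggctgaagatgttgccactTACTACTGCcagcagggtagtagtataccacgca
Naive αD KO lung library 1b differed in another way, with 183 counts (15.4 CPM) of Igha, the constant region of IgA, 40 counts of Jchain and a kappa share of 80.1%. Igha had at most 24 counts in any other library. The libraries 1b also had counts on many more V segments, 42 to 128 Igkv segments of 160 listed against 5 to 79 in libraries 1a and 2. Their Igkv counts were 1.498 to 70.0 times their Igkc counts, against 0.495 to 14.3 times in libraries 1a and 2. The part of this difference between libraries in the levels of the members was not tested.

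**Figure D3:**
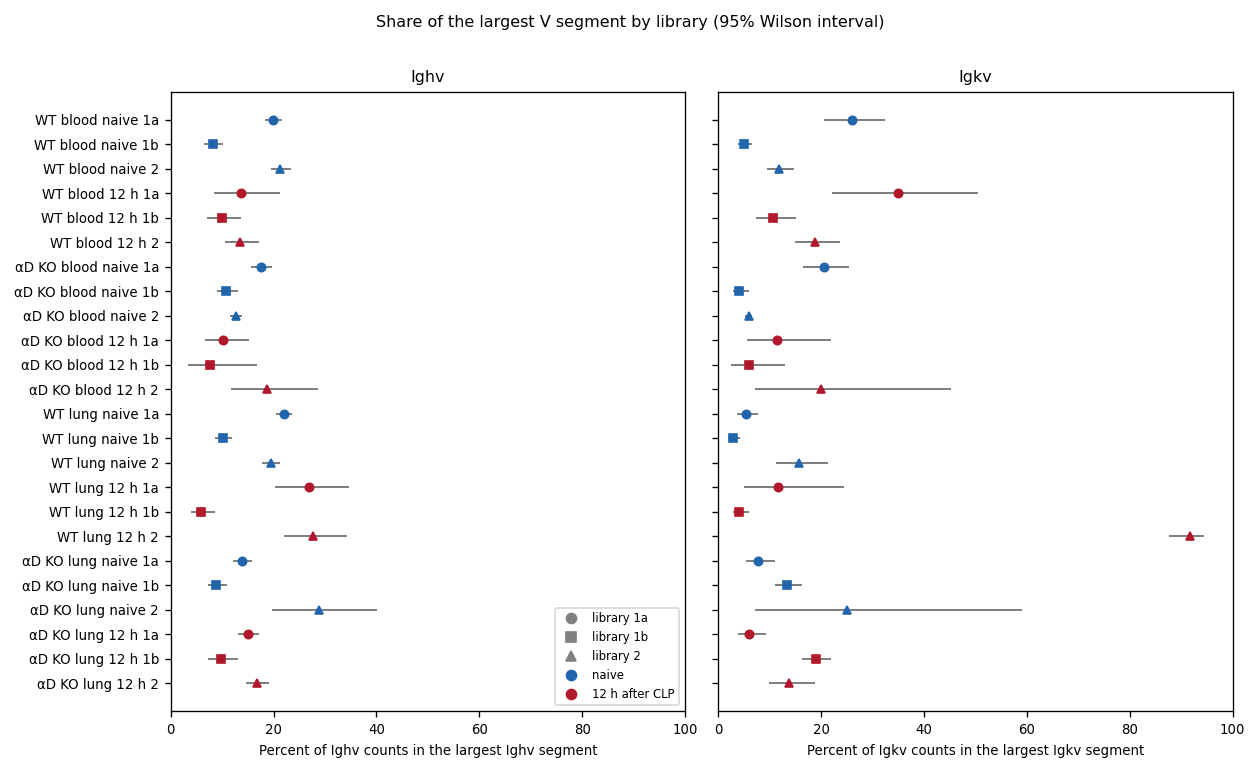
Percent of the V segment counts of a library that fell on its largest segment (horizontal axis, with 95% Wilson intervals as lines) for the heavy chain (Ighv, left) and kappa (Igkv, right), with a row for each of the 24 libraries, naive in blue and 12 hours post CLP in red. WT lung library 2 at 12 hours stands apart in Igkv at 91.7%, and no library exceeds 28.8% in Ighv.

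Cd79a and Cd79b encode the signalling pair of the receptor. Cd79a (chr7:24897381-24902197) was at 7.055, 5.69 and 18.9 CPM in naive WT blood and at 10.3, 5.83 and 22.4 CPM at 12 hours. In WT lung it was at 15.9, 12.75 and 10.85 CPM when naive and at 3.91, 7.97 and 4.04 CPM at 12 hours, without overlap. In αD KO blood it was at 8.69, 7.065 and 136 CPM when naive and at 9.54, 5.40 and 4.73 CPM at 12 hours. The αD KO lung libraries had 8.91, 6.23 and 4.315 CPM when naive and 10.85, 3.85 and 8.13 CPM at 12 hours. Cd79a was never below 3.85 CPM in any library, the naive αD KO lung library 2 included (4.315 CPM).

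Cd79b (chr11:106311341-106314762, minus strand) had a lower lowest value, 0.247 CPM in naive αD KO lung library 2. It was at 3.76, 5.69 and 12.5 CPM in naive WT blood and at 1.57, 0.763 and 12.5 CPM at 12 hours, where library 2 stood apart. In WT lung it was at 9.18, 11.3 and 5.97 CPM when naive and at 0.733, 1.08 and 1.35 CPM at 12 hours, a fold of 8.35 against 2.48 for Cd79a. In αD KO blood it was at 7.20, 6.11 and 111 CPM when naive and at 5.87, 0.270 and 2.09 CPM at 12 hours. The αD KO lung libraries had 5.94, 4.797 and 0.247 CPM when naive and 5.61, 0.513 and 4.70 CPM at 12 hours, with means of 3.66 and 3.61 CPM. Per kilobase, Cd79a was 0.982 to 1.84 times Cd79b in 11 naive libraries and 17.2 times in naive αD KO lung library 2. At 12 hours the ratio was 1.60 to 19.6, with a median of 4.09.

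Ms4a1 (CD20, chr19:11249675-11266241, minus strand) was at 2.36, 10.02 and 9.42 CPM in naive WT blood and at 8.61, 11.7 and 4.27 CPM in naive WT lung. At 12 hours it was at 0.992, 1.85 and 11.1 CPM in WT blood and at 0.183, 4.03 and 0.0539 CPM in WT lung. WT lung library 1b at 12 hours was thus the highest of its group and close to the lowest naive value. The αD KO blood libraries were at 5.31, 6.67 and 77.0 CPM when naive and at 2.20, 0.989 and 0.737 CPM at 12 hours, without overlap. In αD KO lung it overlapped between the times, at 6.48, 10.1 and 0.123 CPM when naive and 6.52, 5.30 and 2.31 CPM at 12 hours.

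Ly6d (chr15:74762056-74763620, minus strand) was at 6.45, 1.71 and 9.62 CPM in naive WT blood and at 4.73, 5.63 and 4.15 CPM in naive WT lung. At 12 hours it was at 0.3655, 0.436 and 9.61 CPM in WT blood, and at 0, 0.0984 and 0.377 CPM in WT lung. The fold of naive to 12 hour means was 1.71 in WT blood, where library 2 lay within the naive range, and 14.8 without that library. It was 30.5 in WT lung, 20.35 without 12 hour library 1a and 98.4 without 12 hour library 2. In αD KO blood it was at 5.03, 2.38 and 96.6 CPM when naive and at 5.38, 0.270 and 1.105 CPM at 12 hours. The αD KO lung libraries were at 2.63, 2.86 and 0.185 CPM when naive and at 4.22, 0.513 and 2.72 CPM at 12 hours.

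In WT blood the fold of naive to 12 hour means was 1.275 for Igkc, 1.483 for Cd79b and 1.56 for Ms4a1. It was 0.737 for Iglc2 and 0.821 for Cd79a, whose means were thus higher at 12 hours. Without 12 hour library 2 the folds of Iglc2 and Cd79a were 7.20 and 1.30. Every naive library was above every 12 hour library for 2 of the 8 members in WT blood (Ighm and Ighd), 7 in WT lung (all but Igkc), 5 in αD KO blood and 0 in αD KO lung. Over all genes with at least 1 CPM in 3 libraries of the comparison, the share without overlap in this direction was 17.4% in WT blood, 18.7% in WT lung, 17.8% in αD KO blood and 2.12% in αD KO lung. The members were picked for this fall, so nothing is read from these counts, and no calls of members are given after CLP. All 8 members passed the filter on low counts in the fits with all libraries of a comparison. A gene is called when edgeR's quasi-likelihood test gives it an adjusted p under 0.05 and it changed by over 1 on the log2 scale. Calls lower made up 5.75% of all genes tested in WT blood, 3.78% in WT lung, 4.99% in αD KO blood and 0.0% in αD KO lung, where DESeq2 also called 0 and 72 of 17939 genes had an unadjusted p under 0.05. Calls higher were 7.75%, 5.24% and 3.75% in the first 3. An unadjusted p under 0.05 was reached by 28.8%, 26.6%, 27.8% and 0.401% of all genes in the 4 comparisons, in the same order. For αD KO lung, here and below, naive library 2 and 12 hour libraries 1a and 2 lay near the other time. No fit after CLP left all of them out, so the response of αD KO lung to CLP cannot be read from these counts.

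Library 2 of naive αD KO blood stood apart from the other naive libraries in 7 of the 8 members. Relative to the median of 10 other naive libraries, leaving out αD KO lung library 2, Ly6d was 21.75-fold, Cd79b 18.4-fold, Iglc2 15.55-fold, Igkc 15.5-fold, Cd79a 15.4-fold, Ms4a1 10.1-fold and Ighd 8.84-fold. Ighm was 1.88-fold, at 848 CPM inside the range of the 10 others (278 to 1170 CPM). The summed J segments were 1.08-fold and also inside that range. Genes of other lymphocytes were high in the same library, the T and NK cell list summing to 569.8 CPM against 20.9 to 45.5 CPM. MHC class II genes, which B cells share with other antigen-presenting cells, summed to 2038 CPM against 63.2 to 446 CPM. The monocyte, macrophage and dendritic cell list summed to 1400 CPM against 470.5 to 1097 CPM, and the neutrophil list to 55140 CPM against 33380 to 65170 CPM. The part of these other cells in the values was not tested. Without this library, the fold of naive to 12 hour αD KO blood was 9.34 for Ighd (45.7 with it), 4.69 for Igkc (29.2), 4.575 for Ms4a1 (22.65), 2.56 for Iglc2 (16.8), 2.43 for Cd79b (15.15), 1.645 for Ly6d (15.4) and 1.202 for Cd79a (7.71). Without 12 hour library 1a instead, the fold was 71.7 for Igkc, 70.2 for Iglc2, 50.4 for Ly6d, 35.2 for Cd79b and 34.35 for Ms4a1.

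**Figure D4:**
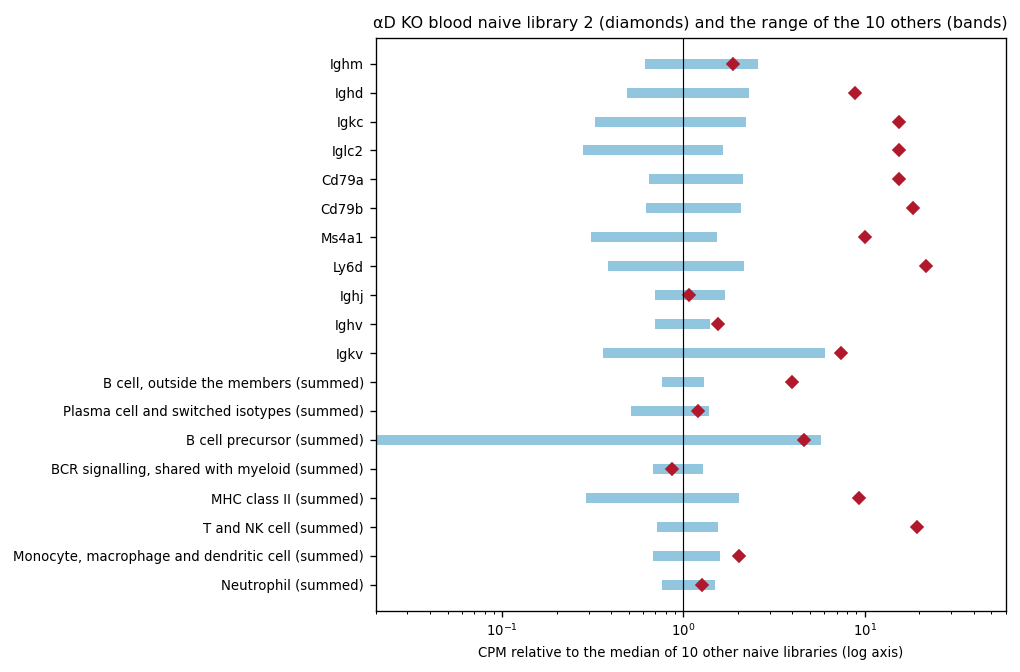
Level in naive αD KO blood library 2 (diamonds) relative to the median of 10 other naive libraries (horizontal log axis), for the 8 genes, the V and J segment sums and the marker lists, with bands from the lowest to the highest of the 10. Ighm, the J segments and the neutrophil list lie inside the bands and 7 of the 8 genes lie above them. The B cell precursor band reaches 0 and is drawn to the edge.

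The comparison of lung with blood asks whether B cell transcripts differ between neutrophils of the 2 tissues, with the genotype as a covariate. In naive mice 0 of 8 members were called by edgeR, beside 0.0038% of 26293 genes (1 gene), 0 had an unadjusted p under 0.05 (3.34% of all genes), and DESeq2 called 0. All 8 members were lower in lung, with a median log2 fold change of -1.25 against -0.08 over all genes. Ly6d had the largest difference, -2.17 (standard error 1.13, adjusted p = 1.0), and Ighm the smallest, -0.71 (0.49, adjusted p = 1.0). Without library 2 of naive αD KO blood, Ly6d was at -0.71 and Ighm at -0.58, and Cd79b at -0.30, and Igkc, Ighd, Iglc2, Cd79a and Ms4a1 between -0.04 and 0.04. Without naive αD KO lung library 2 all 8 members were again lower in lung, from -1.61 for Ly6d to -0.44 for Ighm, with an adjusted p of 1.0 for each by edgeR. Within WT alone Igkc was 0.49 higher in lung, and within αD KO alone 3.10 lower.

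At 12 hours post CLP, 0 of 8 members were called between lung and blood, beside 4.45% of 18236 genes (812 genes), 0 had an unadjusted p under 0.05 (21.5% of all genes), and DESeq2 called 0. The 812 calls were 53 of 24604 genes without αD KO lung libraries 1a and 2, 6 within WT alone, 8 within αD KO alone and 1831 with the replicate block. The log2 fold changes ran from -1.93 for Ly6d (standard error 1.34, adjusted p = 0.404) to 0.89 for Ighm (0.83, adjusted p = 0.529). Ighm was 2.49 higher in lung within αD KO alone and 0.71 lower within WT alone. Without αD KO lung libraries 1a and 2, Ighm was 0.75 lower in lung and Ighd 1.11 lower, so both changed sign. Igkc was then 0.46 higher, and the other 5 members were 0.55 (Ms4a1) to 4.70 (Iglc2) lower in lung. Of the 8, 4 then had an unadjusted p under 0.05, Iglc2, Cd79a, Ly6d and Cd79b, with adjusted p between 0.211 and 0.254 by edgeR. Over all genes 4117 of 24604 (16.7%) had an unadjusted p under 0.05 in that fit, and 0.215% were called.

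The comparison of αD KO with WT asks whether the genotype is associated with these transcripts, with the tissue as a covariate. In naive mice 0 of 8 members were called, beside 0.0114% of 26293 genes (3 genes), 0 had an unadjusted p under 0.05 (1.91% of all genes), and DESeq2 called 0. The differences ran from -0.65 for Ighm (standard error 0.49) to 0.76 for Ms4a1 (0.94), all with an adjusted p of 1.0. Without library 2 of naive αD KO blood all 8 members were lower in αD KO, from -1.48 for Ighd (0.80, unadjusted p = 0.0896, adjusted p = 1.0) to -0.46 for Ms4a1. Without naive αD KO lung library 2 instead, Ighm was 0.39 lower in αD KO and the other 7 were 0.33 (Ighd) to 1.32 (Iglc2) higher, with an adjusted p of 1.0 for each by edgeR.

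At 12 hours, 0 of the 7 members other than Iglc2 were called between the genotypes, beside 0.0384% of 18236 genes (7 genes), 0 had an unadjusted p under 0.05 (2.74% of all genes), and DESeq2 called 0. Ly6d was 1.46 higher in αD KO (standard error 1.34) and Ighm 1.39 higher (0.84), both with an adjusted p of 1.0. Over the alternatives, Ly6d ran from -0.56 to 4.04 and Ighd from -1.31 to 2.97, each with a smallest adjusted p of 0.598 by edgeR or DESeq2. Ighm was 3.11 higher within lung alone (standard error 0.91, unadjusted p = 0.0091, adjusted p = 0.598, with 8.29% of all genes at an unadjusted p under 0.05) and 0.24 lower within blood alone. Without αD KO lung libraries 1a and 2, it was 0.23 lower in αD KO, Ly6d was at 0.02, and the other 5 were between -0.90 (Igkc) and -0.34 (Ms4a1), so Cd79b, Ighd and Ms4a1 also changed sign. Each adjusted p was 1.0 by edgeR.

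Whether the tissue difference depends on the genotype was fitted as an interaction. In naive mice edgeR called 0 of 8 members, with an adjusted p of 1.0 for each, and 0.0% of 26293 genes. Of the members 3 had an unadjusted p under 0.05, and of all genes 108 (0.411%). The log2 difference of lung and blood was lower in αD KO than in WT by 3.06 ± 1.34 (SE) for Cd79a, by 3.58 ± 1.60 for Cd79b and by 4.17 ± 1.81 for Iglc2. At 12 hours edgeR called 0 of the 7 members other than Iglc2 and 0.0% of 18236 genes. Of the 7, 2 had an unadjusted p under 0.05, and of all genes 1795 (9.84%). The difference was higher in αD KO by 4.10 for Ighd (SE 1.38, adjusted p = 0.463 by edgeR) and by 3.165 for Ighm (SE 1.25, adjusted p = 0.470 by edgeR). Without αD KO lung libraries 1a and 2, these were 1.05 for Ighd (SE 1.66) and -0.20 for Ighm (SE 1.21), and edgeR called 0 of the 7. In naive mice, without αD KO blood library 2 the differences were -0.51 for Cd79a, -1.11 for Cd79b and -1.65 for Iglc2, and without αD KO lung library 2 they were -2.85, -3.04 and -3.60. None of the 8 then had an unadjusted p under 0.05 in either fit by edgeR, and 0 were called. DESeq2 was not run for the interactions.

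A list of 23 further B cell genes was counted in the same comparisons. At 12 hours against naive, edgeR called 2 of 22 tested lower and 1 higher in WT blood, with a median log2 fold change of -0.69 against -0.15 over all genes. In WT lung it called 5 of 21 lower and 1 higher (median -2.37 against 0.03). In αD KO blood it called 7 of 22 lower and none higher (median -3.18 against -0.14). In αD KO lung, with the libraries near the other time included, it called 0 of 22 (median 0.07 against -0.05), 0 had an unadjusted p under 0.05, and DESeq2 called 0. The gene called higher in both WT comparisons was Tnfrsf13b, the receptor TACI, which had 3.52 ± 1.29 CPM in naive WT blood and 46.6 ± 3.19 CPM at 12 hours (SD, n = 3). It rose by 3.64 on the log2 scale in WT blood (adjusted p = 0.0021) and by 3.16 in WT lung (adjusted p = 0.0112). The WT blood call was lost without naive 2, 12 hour 1a or 12 hour 2, and the WT lung call without naive 1a, naive 2, 12 hour 1a or 12 hour 2, with adjusted p up to 0.14 by edgeR. In WT lung its mean was 3.49 ± 1.07 CPM when naive and 30.4 ± 15.8 CPM at 12 hours. It was not called in αD KO blood, at 18.1 ± 21.2 and 42.9 ± 5.70 CPM, but was called higher there without naive library 2. In αD KO lung it was at 15.6 ± 21.4 and 10.2 ± 9.76 CPM. Its log2 change there was -0.61, but 1.61 without naive library 2. Without 12 hour library 1a or 2 the change was -0.57 or -0.53. These libraries lay near the other time, and no fit left all of them out.

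The genes called lower were Fcrl1 and Bank1 in WT blood, with Fcer2a, Fcrl1, Fcmr and Iglc3 among those in WT lung, and Fcer2a, Bank1, Fcrl1, Fcmr, Spib, Iglc1 and Iglc3 in αD KO blood. Fcrl1, a receptor of the Fc receptor-like family, fell from 53.25 ± 29.1 to 12.1 ± 2.40 CPM in WT blood and from 47.6 ± 15.0 to 12.5 ± 6.97 CPM in WT lung. Bank1, a scaffold of receptor signalling, fell from 38.5 ± 12.6 to 8.65 ± 5.53 CPM in WT blood and from 42.8 ± 23.9 to 3.41 ± 2.75 CPM in αD KO blood. Cxcr5, a chemokine receptor, was the fourth by abundance and was not called in any of the 4 comparisons. The summed list was 64.85 to 575 CPM in naive libraries and 47.9 to 160.1 CPM at 12 hours. With the library number as a replicate block, the count called lower was 5 in WT blood instead of 2. Over all genes the block changed the calls lower there from 841 to 1202. The B cell counts changed with a library left out, as did the calls over all genes. Those ran from 2 to 2804 in WT blood (1975 with all libraries), 0 to 3941 in WT lung (1340) and 74 to 1414 in αD KO blood (1238). The B cell genes called lower were 0 in WT blood without naive 1a, naive 2, 12 hour 1a or 12 hour 2. In WT lung they were 0 without naive 1a, naive 2, 12 hour 1a or 12 hour 2, 2 without naive 1b, and 16 without 12 hour 1b. In αD KO blood they were 0 without naive 1a, 2 without naive 2, 1 without 12 hour 1a or 12 hour 2, and 4 without 12 hour 1b.

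The other lists were counted in the same way at 12 hours against naive. Of the plasma cell and switched isotype list, 0 of 5 tested were called in WT blood, 1 of 5 in WT lung (Prdm1, higher), 0 of 5 in αD KO blood and 0 of 7 in αD KO lung by edgeR. At an unadjusted p under 0.05 these were 0, 2, 3 and 0, and DESeq2 called 1, 1, 2 and 0. With the replicate block they were 1, 0, 1 and 0. That list was led by Xbp1, a factor of the secretory pathway that many cells express. Of 10 genes of receptor signalling that myeloid cells also use, among them Ptpn6, Lyn, Syk and Prkcd, 0 were called in each of the 4 comparisons, with a median between -0.42 and 0.30 by edgeR, 2 had an unadjusted p under 0.05 in αD KO blood and 0 elsewhere, and DESeq2 called 0. Of the 6 B cell precursor genes at most 1 was tested and 0 were called. Rag1, the recombinase, was the most abundant of them at a mean of 0.809 CPM over the 24 libraries.

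Of the 8 MHC class II genes, 0 were called in WT blood, WT lung and αD KO lung and 1, the transactivator Ciita, fell in αD KO blood by edgeR. At an unadjusted p under 0.05 there were 1, 3 and 0 in the first 3 of these and 7 in αD KO blood, and DESeq2 called 1, 3, 0 and 4 lower. Cd74, the invariant chain, was their most abundant gene, at a mean of 155 CPM over the 24 libraries. Of the T and NK cell list 0 of 9 were called in WT blood, 0 of 11 in WT lung, 4 of 12 lower in αD KO blood (Cd4, Trbc1, Lck and Ncr1) and 0 of 14 in αD KO lung by edgeR. At an unadjusted p under 0.05 these were 5, 1, 11 and 0, and DESeq2 called 3, 0, 4 and 0. With the replicate block 1 T and NK cell gene was called lower in WT blood, and 1 MHC class II gene in each of WT blood and WT lung. Without naive αD KO blood library 2, edgeR called 0 T and NK cell genes and 0 MHC class II genes in αD KO blood. Of the monocyte, macrophage and dendritic cell list, 4 of 9 fell in WT blood, 2 of 7 in WT lung (1 with the replicate block), 5 of 9 in αD KO blood (2 of 10 without naive library 2) and 0 of 10 in αD KO lung. Csf1r, the receptor of macrophage colony-stimulating factor, fell in the first 3 by 2.35, 1.625 and 2.52 on the log2 scale. Of the 8 neutrophil genes, 5 rose and 1 fell in WT blood, 3 rose and 1 fell in WT lung, 4 rose and 1 fell in αD KO blood, and 0 were called in αD KO lung. With the replicate block 1 rose and 0 fell in WT lung, and without naive library 2, 0 rose in αD KO blood. S100a8 rose by 2.43 in WT blood and Csf3r fell by 2.58. The calls in the monocyte and neutrophil lists were 0 in WT blood without naive 1a, naive 2, 12 hour 1a or 12 hour 2, and 0 in WT lung without naive 1a, naive 2, 12 hour 1a or 12 hour 2. The αD KO blood monocyte list had 1 to 6 calls lower with a library left out, and the neutrophil list had no call without naive 1a, 12 hour 1a or 12 hour 2. There the T and NK cell calls were 7 without naive 1b and 0 with any other library left out, and the Ciita call was lost without naive 1a, naive 2, 12 hour 1a or 12 hour 2. Prdm1 was called in WT lung with 12 hour 1b left out and with no other library left out. In the comparisons between tissues and genotypes, the calls in all these lists were Csf1r (1.345 higher) and Mmp8 (1.35 lower) in lung against blood at 12 hours by edgeR. Without αD KO lung libraries 1a and 2 neither was called, at 0.78 for Csf1r (adjusted p = 0.255 by edgeR) and -1.13 for Mmp8 (adjusted p = 0.1895 by edgeR). The part of these cell types in the level of the 8 members was not tested.

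The 8 members were correlated with each other across the 24 libraries, with a Pearson's r of log2 CPM between 0.54 (Ighm and Cd79a) and 0.94 (Iglc2 and Ly6d). Over the 12 naive libraries, Spearman's rho was 0.99 between Iglc2 and Cd79a and 0.00 between Ighm and Ms4a1. With each member compared with the mean of the other 7 among 20438 genes, Cd79b ranked 2, Iglc2 3, Ly6d 7, Ighd 8, Ighm 30, Cd79a 51, Ms4a1 148 and Igkc 174. Among the 10 other genes most like the members by Spearman's rho over the 24 libraries were Iglc3 (0.946), Fcmr (0.915), Luc7l (0.904), Gimap3 (0.898), Spib (0.890), H2-DMb2 (0.876), Tmem150b (0.875), Bank1 (0.860) and Ighv1-53 (0.857). Of these, Iglc3, Fcmr, Spib and Bank1 belong to the further B cell list and H2-DMb2 to the MHC class II list. Luc7l, a splicing factor, stood apart in level, between 15.2 and 39.1 CPM in every library. All points share the library, its depth and the time after CLP. The members were picked for their fall after CLP and their spread over these same libraries, so coefficients and ranks are a description only.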

How the data were processed

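Whole counts per gene were deposited by the authors, without normalization, for neutrophils sorted from blood and lung. According to the methods, cDNA was amplified from full-length transcripts, libraries were made by tagmentation, and reads were trimmed (Trimmomatic 0.36) and mapped with STAR 2.5.2b. Unique reads within exons were counted. The strand of counting is not given in the sources used here. The submitters' notes name GRCm38, and chromosome, start and end equal those of GENCODE M21 for 44737 genes and all 8 members. Symbols were matched for 48970 of 49315 genes.

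Groups follow the labels of the 24 files. Over genes with at least 10 counts, chi-square divided by its degrees of freedom was 63.5 to 328.5 between libraries 1a and 1b, so each file was taken as a library. Nothing says whether they came from separate animals, and p-values then measure only the spread between these libraries.

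Tests used edgeR 4.0.16 in R 4.3.3 (TMM factors, filterByExpr, quasi-likelihood F test, two-sided, Benjamini-Hochberg over all genes tested, called when the adjusted p was under 0.05 and log2 fold change beyond 1 in size), with DESeq2 1.42.0 as a further tool. The installed limma was 3.58.1, and no limma test was run. Tables used pandas 2.3.3 and scipy 1.17.1 (Python 3.11.15, numpy 2.4.6). The scripts were tested on simulated counts. Log2 levels for correlations used a prior count of 1. Deviations of same-numbered libraries from their group means correlated above 0.1 for every number in 10 of 12 pairs of groups, though the labels state no pairing. The 2 others were naive lung against blood in αD KO and αD KO against WT in naive lung.

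The members, lists and rules were chosen with earlier results of these data known. Named genes were the 8 members, Itgad, at most the 4 most abundant of each list, the 10 most like the members and the largest V segment of each group. Not every gene these rules allow is printed, and one is not reported here. Genes called in a list, Jchain, Igha, Ighj1 to Ighj4, Igkv8-30 and Igkv4-91 as printed by library were named after their values were seen. Alternatives were RLE normalization, no filter, DESeq2, the files of sample 1 summed, the library number as a block, each library left out, single tissues or genotypes and the 3 αD KO lung libraries that lay near the other time left out. Levels without naive αD KO blood library 2, folds after CLP with each library left out, and interactions without it or the 3 lung libraries, were added after seeing the data.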

Additional observations from a re-analysis of the deposited data

How the results depend on the processing

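In the 4 comparisons of tissue and genotype, leaving out Iglc2 between genotypes at 12 hours, no member was called by edgeR or DESeq2 under any alternative in which it passed the filter, including the library number as a replicate block (0 in each). Iglc2 and Ly6d did not pass it for lung against blood at 12 hours within WT alone. Among 618 log2 fold changes of members recomputed under alternatives, 67 had the other sign and 0 were called. The smallest adjusted p was 0.857 for naive lung against blood, 0.146 at 12 hours, 0.759 for naive αD KO against WT and 0.598 at 12 hours. B cell list genes called lower after CLP numbered 2 in WT blood, and 5 with DESeq2 and 5 with the replicate block. They numbered 5 in WT lung, and 11 with DESeq2, 8 with the files of sample 1 summed and 6 with the replicate block. They numbered 7 in αD KO blood, and 17 without a filter, 12 with DESeq2, 2 with the files summed and 7 with the replicate block. With each library left out in turn, the counts ran from 0 to 3 in WT blood, 0 to 16 in WT lung and 0 to 6 in αD KO blood. The replicate block moved no other of these B cell counts by over 1.5 times. Its values for the other lists stand beside their counts. In αD KO lung the B cell counts were 0 throughout, in fits that each kept libraries near the other time. Over all genes, DESeq2 called 189 in naive lung against blood (1 by edgeR) and 19 in naive αD KO against WT (3), 1790 in lung against blood at 12 hours (812), 21 in αD KO against WT at 12 hours (7), and 3136, 2810 and 2498 after CLP in WT blood (1975), WT lung (1340) and αD KO blood (1238). The cause was not tested. With a library left out, the counts over all genes ran from 2 to 2804 in WT blood, 0 to 3941 in WT lung and 74 to 1414 in αD KO blood after CLP. With the replicate block they were 2692, 893 and 1520 in the same order. With the files of sample 1 summed they were 2756, 2337 and 635. Members with fewer than 3 counts in a library lie at the floor.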
